A study of Mus musculus with 18 samples.

Results

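The difference between muscle and fat in the response to daily prednisone was measured gene by gene, within each mouse. The comparison uses 12 of the 18 libraries of the series, those of 3 vehicle mice and 3 daily mice, each of which gave quadriceps muscle and white adipose tissue. The mice were male wild-type DBA/2J animals, an inbred strain, aged about 20 weeks when injections began. All had eaten a high-fat diet for 12 weeks by then and stayed on it through the 12 weeks of injections, so no lean control is part of the comparison. The daily mice received 1 mg/kg prednisone into the peritoneum once a day, the vehicle mice received daily vehicle, and both tissues were collected 24 hours after the final dose. The 3 mice given the same dose once a week entered only the estimate of the spread. The labels give 3 daily adipose libraries and the table holds 3, while the design text of the series counts fewer.

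Prednisone is a synthetic glucocorticoid that the body converts to its active form and that acts through the glucocorticoid receptor, a transcription factor present in nearly every cell. In skeletal muscle, glucocorticoids are known for protein breakdown and fibre atrophy. In adipose tissue they act on fat cell formation, lipolysis and the resident immune cells.

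For each of 11737 genes the adipose value of a mouse, as log2 of the TPM plus 1, was subtracted from its muscle value. TPM is a transcript abundance scaled to a fixed sum in each library. These muscle minus adipose values were then compared between daily and vehicle mice with limma. A positive difference means that daily prednisone moved the gene further up, or less far down, in muscle than in adipose tissue. A gene was called when its adjusted p was under 0.05. Depth is unknown, since TPM holds no read counts, and error comes from the spread between mice. In bulk tissue, fewer cells of a type and less RNA per cell cannot be told apart.

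The libraries carried the markers of their labelled tissue. The summed TPM of 20 adult fast fibre genes was 148242 to 166631 in the vehicle and daily muscle libraries. The sum of 20 adipocyte genes was 53011 to 61372 in the adipose libraries of those mice. Each tissue also held transcripts of the other. Fast fibre genes summed to 310 to 461 TPM in vehicle adipose tissue and 331 to 1384 TPM in daily adipose tissue, where mouse 2 was highest. Adipocyte genes summed to 2679 to 3435 TPM in vehicle muscle and 1428 to 3302 TPM in daily muscle. Genes of the mitochondrial genome took 27.5% to 31.3% of muscle TPM in all muscle libraries. In adipose tissue they took 12.9% to 13.5% in vehicle mice and 15.3% to 16.9% in daily mice. The third mouse of each regimen stood apart in another way. It held the middle of the 3 muscle minus adipose values in 45.5% of genes in vehicle mice and 42.5% in daily mice, where 33.3% is an equal share. In muscle alone daily mouse 3 was in the middle for 52.0% of genes. The counts of called genes without the third mice are given beside the counts over all mice.

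The change after daily prednisone differed between the 2 tissues for 6 genes by the test, of which mt-Atp6 was not called once the TPM of an identical copy was added to it. Relative to adipose tissue, Dclk1, Tubb2b, Spp1 and Myl4 were higher in muscle, by 1.27 to 2.94 on the log2 scale. Adamtsl5 and mt-Atp6 were lower in muscle, by a difference of -1.07 and -0.82. The 6 genes are 0.0511% of those tested, with 0.0341% higher and 0.017% lower, and 1618 genes had an unadjusted p under 0.05. Dclk1 and mt-Atp6 fall outside the rule by which genes were chosen to be named, the first for its low level and the second as a gene of the mitochondrial genome, so they were named after their values were seen. Of all genes tested, 68% had a negative difference (49.3% under TMM scaling, which rescales each library).

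**Figure D1:**
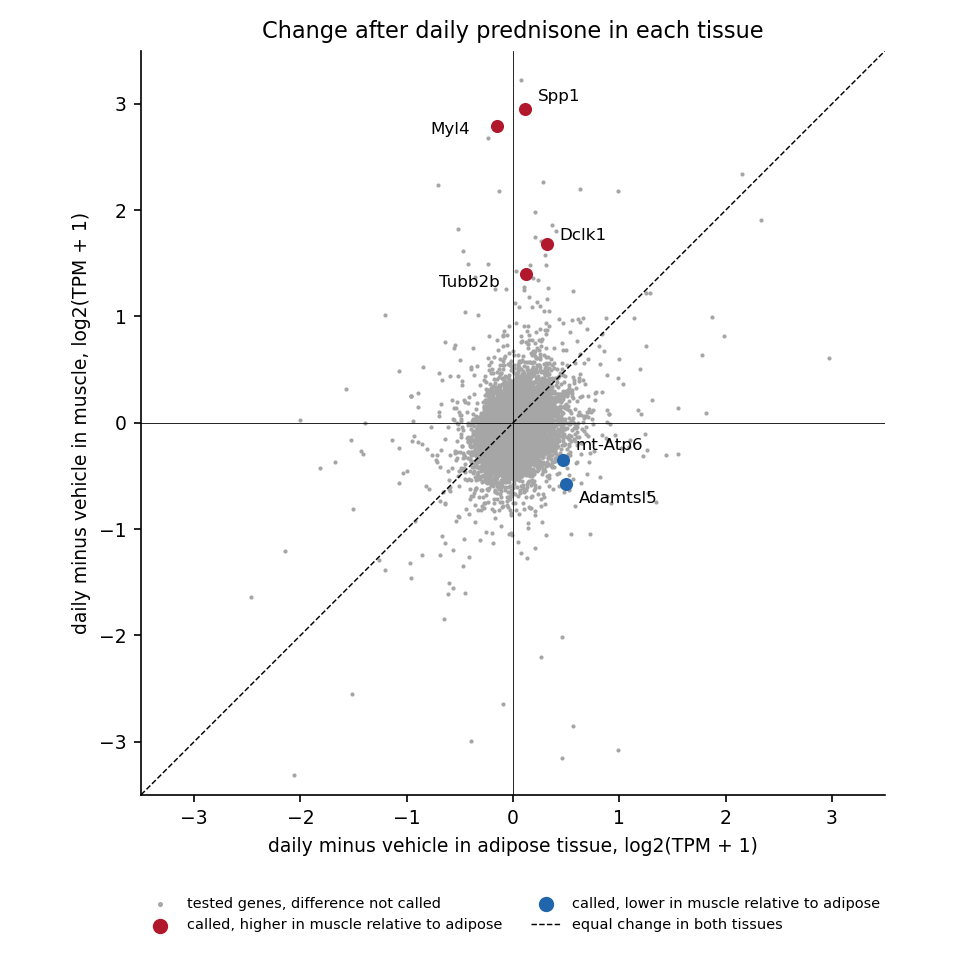
Change after daily prednisone in muscle (vertical axis) against the change in adipose tissue (horizontal axis), both as daily minus vehicle on the log2(TPM + 1) scale, means of 3 mice per group, for all genes tested but Rps12l1, which lies outside the axes at 7.36 in muscle. Points on the dashed line changed equally. The red genes lie far above the line near 0 on the adipose axis, and the blue genes lie below it.

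In muscle alone 205 genes rose (1.75%) and 1358 fell (11.6%), while in adipose tissue 1 rose (0.00852%) and 0 fell (0%), all by limma. Under TMM scaling the muscle counts were 335 and 417. Without the third mouse of every regimen 1 gene rose and 2 fell in muscle and 0 were called in adipose tissue, where 309 had an unadjusted p under 0.05. With 1 mouse left out at a time the muscle calls ranged from 492 (without daily mouse 3) to 1589, with 880 without vehicle mouse 1 and 811 without vehicle mouse 2. The adipose calls ranged from 0 to 12, the 12 (3 higher and 9 lower) without vehicle mouse 1. At an unadjusted p under 0.05, 490 adipose genes were higher and 600 lower. The 4 genes with a higher difference had all risen in muscle, the 2 with a lower difference had fallen there, and none was called in adipose tissue. No gene was called in both tissues, so none was called in opposite directions. The gene that rose in adipose tissue was Thbs1, a matrix glycoprotein. Its adipose level was 33.9, 35.7 and 34.8 TPM in vehicle mice and 58.4, 51.8 and 58.2 TPM in daily mice, a rise of 0.67 on the log2 scale (adjusted p = 0.0360). Its difference between tissues was -0.30 ± 0.16 (SE, adjusted p = 0.439), so a different response in muscle was not shown.

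A muscle call without an adipose call is not a tissue difference: of the 1563 genes called in muscle, all but 6 were not called for the difference. The gap was measured with a larger spread than either tissue, with a median residual SD of 0.182 on the log2 scale, against 0.117 in muscle and 0.143 in adipose tissue. The 205 genes that rose in muscle had a median adipose change of 0.11, with 70.2% of them above 0, and the 1358 that fell had a median of -0.06, with 31.1% above 0. Over all genes tested that share was 50.04%. The tissues came from the same mice but from separate libraries.

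The count of 6 was small enough to move with single mice. It was 0 without vehicle mouse 1, without daily mouse 1, without daily mouse 3 and without the third mouse of every regimen. It was 2 without vehicle mouse 2, 1 without vehicle mouse 3 and 9 without daily mouse 2. Of those 9 genes, 2 were among the 6. Treating the tissues as separate animals gave 73 calls, 21 higher and 52 lower. The median difference of all genes was -0.09, and TMM scaling, which moves it to 0.00, gave 6 genes all higher in muscle, 4 of which were among the 6. None of the 6 genes reversed its direction under the alternatives in which it was tested, 23 for Dclk1 and mt-Atp6 and 24 for the others. Their daily and vehicle mice did not overlap, so leaving out mice could not have reversed them, and the unchanged sign adds no support there.

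Myl4 encodes the atrial and embryonic essential light chain of myosin, made in developing and regenerating skeletal muscle and little in adult limb muscle. It lies on chr11:104550663-104595753, plus strand (GRCm38). In muscle it measured 4.85, 14.1 and 8.25 TPM in vehicle mice and 84.1, 50.8 and 61.0 TPM in daily mice. In adipose tissue of the same animals it measured 26.2, 20.7 and 25.8 TPM against 22.4, 20.7 and 21.8 TPM. The muscle groups were far apart and the adipose groups overlapped. The muscle minus adipose value moved from -2.22, -0.52 and -1.53 to 1.86, 1.26 and 1.44, so Myl4 went from lower in muscle than in fat to higher. The difference was 2.94 ± 0.37 (SE, n = 3 and 3, adjusted p = 0.0441, limma).

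The Myl4 transcripts differed in their shares between the tissues. The protein-coding transcript ENSMUST00000106956.9 was at 1.89, 6.81 and 2.80 TPM in vehicle muscle and 60.3, 32.4 and 45.5 TPM in daily muscle. It was listed at 0 in all 6 adipose libraries. The largest part of the adipose value was ENSMUST00000123074.7, annotated as a retained intron, at 49.7% of Myl4 TPM in vehicle and 60.3% in daily mice. Muscle held this transcript too, at a mean of 3.19 TPM in vehicle and 7.69 TPM in daily mice. Such transcript values are the authors' estimates, which divide reads among overlapping isoforms.

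Spp1 encodes osteopontin, a secreted phosphoprotein and integrin ligand made by macrophages and by injured or regenerating muscle. It lies on chr5:104435118-104441050, plus strand. Its muscle level was 2.45, 1.30 and 2.09 TPM in vehicle mice and 27.6, 17.0 and 20.98 TPM in daily mice. Its adipose level was 6.19, 3.61 and 3.85 TPM and 5.52, 4.64 and 4.51 TPM. As for Myl4, the muscle groups were separate and the adipose groups were not. The muscle minus adipose value was -1.06, -1.002 and -0.65 in vehicle mice and 2.13, 1.68 and 2.00 in daily mice. The difference was 2.84 ± 0.34 (adjusted p = 0.0441), with a 95% interval of 2.07 to 3.61.

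Dclk1 encodes a doublecortin-like kinase that binds microtubules. It lies on chr3:55242364-55539068, plus strand. Its muscle level was low in vehicle mice, at 0.62, 0.95 and 0.78 TPM, and 6.24, 3.61 and 4.61 TPM in daily mice. In adipose tissue it was 2.21, 2.58 and 1.88 TPM against 3.51, 2.48 and 3.11 TPM. The adipose mean was thus higher in daily mice too, by 0.32 on the log2 scale (adjusted p = 0.556), but the groups overlapped. The difference was 1.36 ± 0.12 (adjusted p = 0.00910), the smallest p of all genes. In muscle no vehicle or weekly library reached 1 TPM, so Dclk1 entered the test through daily muscle alone. Dclk1 therefore had to be higher there, and its call supports nothing further. Of its 15 transcripts in the table, ENSMUST00000167204.7 had mean muscle levels of 0.26 and 2.38 TPM in vehicle and daily mice, and ENSMUST00000199585.4 had 0.32 and 1.37 TPM. In adipose tissue ENSMUST00000167204.7 was higher in daily mice without overlap, at 1.08, 0.79 and 1.03 TPM against 1.89, 1.34 and 1.52 TPM. The adipose means of ENSMUST00000199585.4 were 0.82 and 0.77 TPM.

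Tubb2b encodes a beta-tubulin isotype best known from developing neurons. It lies on chr13:34126748-34130466, minus strand. In muscle it was at 2.53, 2.06 and 2.40 TPM in vehicle mice and 10.3, 6.22 and 7.18 TPM in daily mice. In adipose tissue, where the gene was more abundant, it was at 18.1, 18.4 and 17.6 TPM and 23.4, 17.7 and 18.5 TPM. Daily muscle therefore approached the adipose level without reaching it. The difference was 1.27 ± 0.13 (adjusted p = 0.0201). Tubb6, another beta-tubulin, had a difference of 1.40 ± 0.21 that did not pass (adjusted p = 0.0829).

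Adamtsl5 encodes a secreted ADAMTS-like protein that lacks the protease domain and binds microfibrils. It lies on chr10:80339110-80348412, minus strand. Its muscle level was 26.3, 23.4 and 22.6 TPM in vehicle mice and 16.3, 14.6 and 16.6 TPM in daily mice. Its adipose level was 8.52, 7.81 and 9.29 TPM and 12.0, 11.7 and 13.7 TPM. The groups were separate in both tissues and in opposite directions, by -0.58 in muscle (adjusted p = 0.00343) and by 0.50 in adipose tissue, where the change did not pass (adjusted p = 0.330). The difference was -1.07 ± 0.14 (adjusted p = 0.0441). The largest part of its value was a retained-intron transcript, ENSMUST00000124789.7, at means of 9.18 and 7.65 TPM in vehicle and daily muscle. ENSMUST00000138705.2, annotated as a processed transcript, had means of 4.67 and 1.40 TPM in muscle and 1.37 and 2.97 TPM in adipose tissue. The protein-coding ENSMUST00000095446.9 had means of 6.80 and 4.14 TPM in muscle. Its adipose values overlapped, at 0.74 to 1.22 TPM in vehicle and 0.19 to 2.96 TPM in daily mice.

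**Figure D2:**
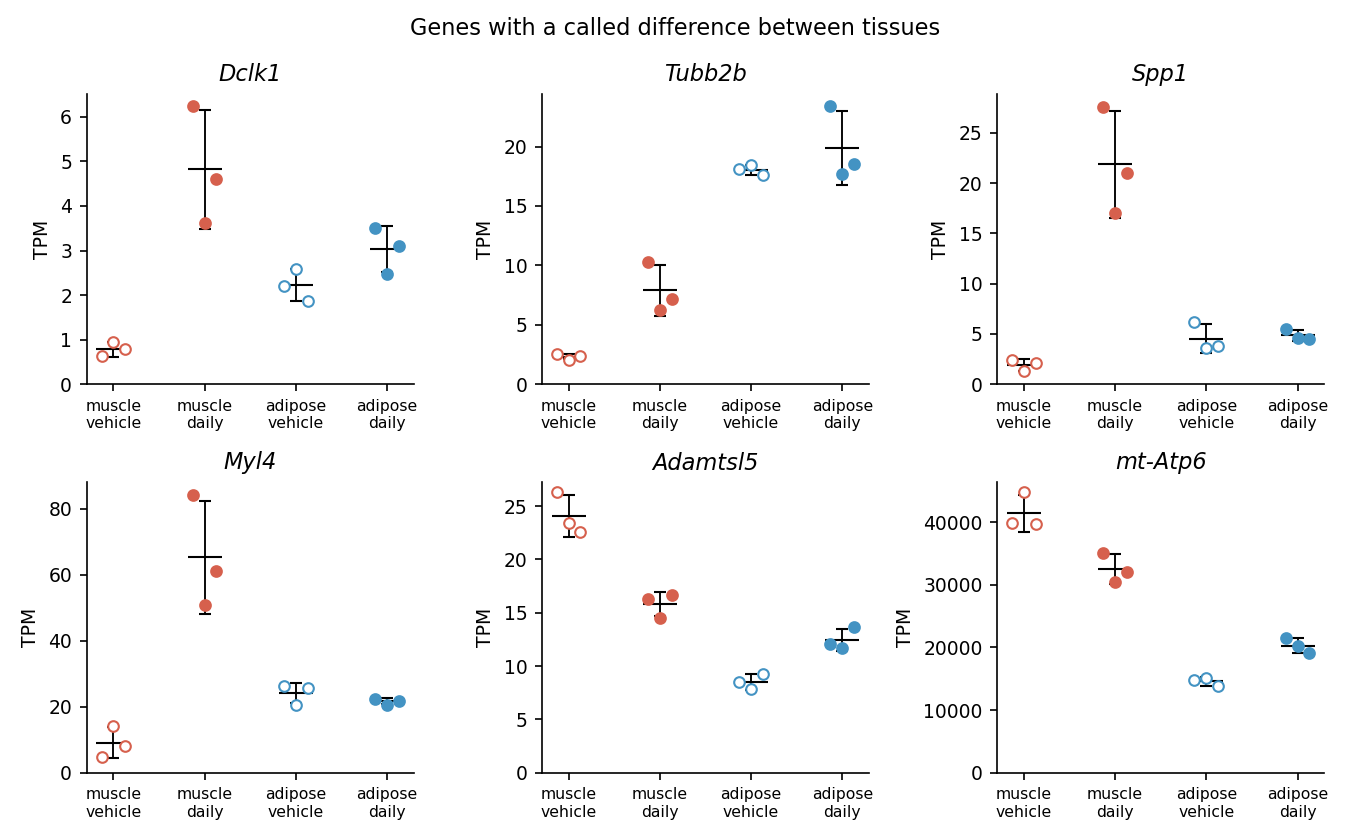
TPM of the 6 called genes in each library (points) with the mean and SD of 3 mice (bars), muscle in red and adipose tissue in blue, vehicle open and daily filled, each gene on its own linear axis. In muscle every daily point of Dclk1, Tubb2b, Spp1 and Myl4 lies above every vehicle point, while the daily points of Adamtsl5 and mt-Atp6 lie lower in muscle and higher in adipose tissue.

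In the 3 mice on the weekly schedule, given here as levels with no test, muscle Myl4 was at 5.98, 7.04 and 6.69 TPM and Spp1 at 2.03, 2.30 and 1.95 TPM, within the vehicle range in muscle. Muscle Dclk1 was at 0.59, 0.50 and 0.56 TPM and Tubb2b at 1.69, 1.79 and 1.77 TPM, below every vehicle value. Their adipose levels, at 4.31, 3.96 and 3.69 TPM for Dclk1 and 25.9, 21.2 and 22.4 TPM for Tubb2b, lay above every vehicle value. For the genes that were higher in daily muscle, no weekly muscle value reached the daily range. Adamtsl5 was different, at 18.4, 19.4 and 18.8 TPM in muscle, between the vehicle and daily values, and at 14.0, 17.6 and 19.5 TPM in adipose tissue, above every vehicle and daily value.

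RefSeq promoter entries (GRCm38.p6) were present for 4 of the 6 called genes. The 2 printed lie at the starts of transcripts that rose in muscle. The first is the 250 bases before the main start of Spp1, at chr5:104434861-104435110, and the second is the 250 bases before the internal start of Dclk1 used by ENSMUST00000199585.4, at chr3:55461478-55461727, both on the plus strand. Capitals mark the E-box letters CANNTG, the core bound by basic helix-loop-helix factors such as myogenin.
Spp1: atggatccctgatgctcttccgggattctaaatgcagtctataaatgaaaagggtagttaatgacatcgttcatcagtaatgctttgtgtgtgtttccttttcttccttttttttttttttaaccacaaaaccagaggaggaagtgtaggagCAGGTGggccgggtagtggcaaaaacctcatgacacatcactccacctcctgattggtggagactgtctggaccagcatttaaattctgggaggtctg
Dclk1: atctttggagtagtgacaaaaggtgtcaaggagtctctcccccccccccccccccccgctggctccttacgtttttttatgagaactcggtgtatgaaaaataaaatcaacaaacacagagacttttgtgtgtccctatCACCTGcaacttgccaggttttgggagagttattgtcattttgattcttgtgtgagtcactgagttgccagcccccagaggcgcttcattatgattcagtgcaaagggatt

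Each window held 1 match to CANNTG on either strand, letters that 66.2% of all 32817 RefSeq promoter windows of this length hold. Neither held AGAACA or its reverse complement TGTTCT, letters of one arm of the palindrome bound by the glucocorticoid receptor, which 16.1% of windows hold. A match of this length is a description of the sequence. The entry for Myl4 covers the upstream start at the gene's 5′ end, whose transcript ENSMUST00000018800.8 was at 0.51 and 0.49 TPM in vehicle and daily muscle, so it is not printed. That Myl4 window held 1 match to AGAACA or its reverse complement and 0 to CANNTG. The unprinted entries of Spp1, Dclk1 and Adamtsl5 held 2, 2 and 1 matches to CANNTG, and each held 0 to AGAACA. That of Dclk1, at chr3:55242114-55242363, ends at the start of ENSMUST00000196745.4, which had 3.0e-09 and 0.15 TPM in vehicle and daily muscle. ENSMUST00000167204.7, the Dclk1 transcript with the larger rise, starts further downstream at 55242526. The printed Dclk1 window thus belongs to the transcript that rose less.

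The call for mt-Atp6, the mitochondrial gene for subunit 6 of ATP synthase (M:7927-8607), did not hold once the TPM of a copy was added. The transcript of Gm10925, an unprocessed pseudogene on chr1:24613974-24614651, minus strand, is identical to mt-Atp6 over all 678 aligned bases. The first 60 bases of each transcript are printed to show this.
mt-Atp6: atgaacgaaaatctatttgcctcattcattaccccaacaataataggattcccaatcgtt
Gm10925: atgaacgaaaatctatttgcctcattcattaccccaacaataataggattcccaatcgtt

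The deposited values gave mt-Atp6 a mean of 41439 ± 2950 TPM (SD) in vehicle muscle and 32504.5 ± 2407 TPM in daily muscle. Gm10925 had 4028, 2545 and 9142 TPM in vehicle muscle and 16699.5, 23051 and 22859 TPM in daily muscle. In adipose tissue mt-Atp6 was higher in daily mice, at 20243 ± 1213 TPM against 14592 ± 693 TPM. Gm10925 in adipose tissue was at 8451, 7124 and 10001 TPM in vehicle mice and 4950, 9531 and 9642 TPM in daily mice. The copy and the gene thus moved in opposite directions in muscle, while the adipose groups of the copy overlapped. How reads were divided between them was not tested. The difference was -0.82 ± 0.10 for mt-Atp6 (adjusted p = 0.0441) and 2.32 ± 0.38 for Gm10925 (adjusted p = 0.101). For the sum of the 2, chosen after seeing the data, it was -0.10 ± 0.10 with an interval of -0.32 to 0.13 (adjusted p = 0.703), and the sum was higher in daily mice by 0.19 in muscle and 0.29 in adipose tissue.

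**Figure D3:**
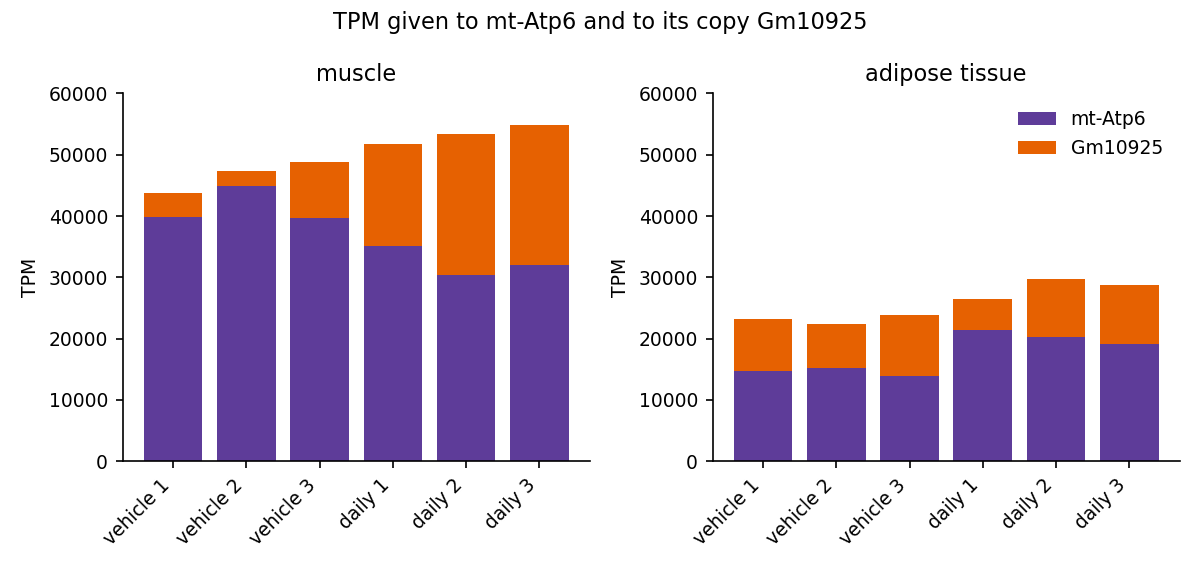
TPM that the deposited table gives to mt-Atp6 (purple) and to its copy Gm10925 (orange), stacked, in each vehicle and daily library of muscle and adipose tissue. In muscle the orange share grows in the daily libraries while the summed height rises only from 43839 to 48803 TPM in vehicle mice to 51828 to 54845 TPM in daily mice.

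Myl4 belongs to a list of genes of immature and denervated muscle. Of 30 genes of immature or denervated muscle, 9 were tested and Myl4 was the 1 called (0.0511% of all genes). The median difference of the 9 was 0.41, against -0.09 over all genes. Nes, the intermediate filament nestin, had a difference of 0.81 ± 0.16 (adjusted p = 0.14), and Actc1, cardiac actin, had 1.78 ± 0.42 (adjusted p = 0.16). The slow fibre list had 5 of 14 genes tested, 0 called, 3 positive and 2 negative, at a median of 0.09. Its member Tnnc1, troponin C of slow and cardiac muscle, missed the threshold at 2.92 ± 0.39 (adjusted p = 0.0514). Its muscle level was 3.20, 4.07 and 3.15 TPM in vehicle mice and 38.6, 21.1 and 25.7 TPM in daily mice, with adipose levels of 0.39 to 1.77 TPM in both groups. Hdac4, a repressor of muscle genes, went the other way at -0.71 ± 0.13 (adjusted p = 0.115).

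The other immature muscle genes did not reach 1 TPM in enough libraries of both tissues, so the comparison as set does not hold them. Embryonic myosin heavy chain, Myh3, was at 0.15, 1.16 and 0.66 TPM in vehicle muscle and 29.5, 16.6 and 20.5 TPM in daily muscle, with 0.00 to 0.10 TPM in the adipose libraries of these mice. Myog, which encodes the muscle differentiation factor myogenin, was at 6.82, 9.03 and 8.37 TPM and 31.3, 22.6 and 26.2 TPM in muscle, and at 0.11 TPM or less in adipose tissue. In adipose tissue both were close to 0. When genes needed 1 TPM in only 1 tissue, a choice made after seeing the data, 14659 genes were tested and 15 called (0.102%), 13 of them higher. Of these 15, 9 were immature muscle genes: Myh3, Tmem8c, Tnnt2, Gm7325, Chrng, Myog, Myh8, Tnni1 and Myl4. The other 19 of the 28 members tested were not called, and 7 of the 28 had negative differences, among them Myod1 at -0.43 and Igfn1 at -0.49. Myog, Tnnt2, Tnni1 and Myl4 were above 1 TPM in every vehicle muscle library, so they did not enter through daily muscle alone. Gm7325 and Chrng were under 1 TPM in every vehicle muscle library. Myh3 passed 1 TPM in vehicle mouse 2 only and was at 0.29, 0.34 and 0.30 TPM in weekly muscle, so it too needed daily muscle to enter. In vehicle muscle Tmem8c was at 0.30, 1.25 and 0.73 TPM and Myh8 at 0.63, 1.38 and 1.11 TPM. Genes that entered only with the help of daily muscle had to differ, so the count of 9 describes its genes and supports nothing further.

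Macrophage genes were the other group near Spp1, which is itself on that list. Of 26 genes 24 were tested, 1 was called for the difference (Spp1), beside 0.0511% of all genes, and 8 rose in muscle, beside 1.75%. The median difference was 0.25, with 16 positive and 8 negative. Ctss, the lysosomal protease cathepsin S, was at 11.4, 16.3 and 14.1 TPM in vehicle muscle and 66.1, 37.2 and 46.7 TPM in daily muscle. In adipose tissue it was at 245, 180 and 199 TPM and 233, 244 and 241 TPM. Its difference of 1.54 ± 0.27 did not pass (adjusted p = 0.107). Lyz2, lysozyme, differed by 0.85 ± 0.22 (adjusted p = 0.192), and Mpeg1, perforin-2, by 1.29 ± 0.25 (adjusted p = 0.14).

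Of the members with negative values, none of which was called, Cd163, a haemoglobin scavenger receptor, differed by -0.41 ± 0.18 (adjusted p = 0.345). Mrc1, the mannose receptor, differed by -0.54 ± 0.21 (adjusted p = 0.31), and C1qa, a complement subunit, by -0.11 ± 0.29 (adjusted p = 0.9), within its error of 0. The summed macrophage markers went from 345 to 487 TPM in vehicle muscle to 547 to 891 TPM in daily muscle. In adipose tissue they were 3268 to 4387 TPM and 4162 to 4233 TPM. The higher sum in muscle was not a rise of every member. Lyz2 alone held 97.3, 142 and 116 TPM of it in vehicle muscle and 315, 225 and 258 TPM in daily muscle. Csf1r overlapped, at 9.08, 14.7 and 11.5 TPM against 17.8, 10.5 and 12.2 TPM. The part of macrophage genes in the Spp1 result was not tested.

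Mast cell genes had 3 of 4 tested members (of 10) that fell in muscle, beside 11.6% of all genes, all 4 with negative differences, beside 68%, a median difference of -0.92 and 0 called. Tpsb2, a tryptase, was at 9.87, 9.77 and 8.89 TPM in vehicle muscle and 6.16, 4.90 and 4.59 TPM in daily muscle. In adipose tissue it was at 22.5, 14.5 and 18.5 TPM and 25.5, 19.7 and 23.4 TPM, and its difference was -1.07 ± 0.18 (adjusted p = 0.105). With only 4 members tested the list has few genes to describe.

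Among lists with 5 or more tested members, that of adult fast fibre genes had the lowest median, at -0.63, with 18 of 18 tested members negative, beside 68% of all genes, and 0 called (15 of 18 negative under TMM scaling). The muscle median was -0.03 and the adipose median 0.58. Actn3, fast fibre alpha-actinin, was at 5.40, 3.77 and 4.66 TPM in vehicle adipose tissue and 4.19, 20.0 and 5.55 TPM in daily adipose tissue. Daily mouse 2 alone was high. With the fast fibre level of the adipose library as a covariate, 1 gene, Dclk1, was called.

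Adipocyte genes also had 19 of 19 tested members negative and 0 called, at a median of -0.39 (18 of 19 and -0.28 under TMM scaling). None was called in muscle, where the median was -0.48, or in adipose tissue, where it was -0.10. The summed level of these genes in daily muscle overlapped the vehicle range, with daily mouse 1 inside it. Adipoq, the hormone adiponectin, was at 113, 89.3 and 101 TPM in vehicle muscle and 120, 40.5 and 65.8 TPM in daily muscle. Its difference was -0.47 ± 0.40 (adjusted p = 0.64). Lep, leptin, differed by -0.38 ± 0.34 (adjusted p = 0.653) and Pck1, the gluconeogenic and glyceroneogenic carboxykinase, by -0.97 ± 0.44 (adjusted p = 0.371). In all 3 genes daily mouse 2 had the lowest muscle value.

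Of 29 tested glucocorticoid receptor targets (of 30), 0 were called for the difference, with 10 positive, 19 negative and a median of -0.12 (-0.02 under TMM scaling). These shares are near those of all genes, of which 68% were negative. In muscle 3 rose (beside 1.75% of all genes) and 3 fell (beside 11.6%), and in adipose tissue none was called. Fkbp5, a chaperone of the receptor and a standard target, was at 7.10, 7.29 and 7.12 TPM in vehicle muscle and 8.92, 13.1 and 9.87 TPM in daily muscle. Its adipose level was 11.4, 12.3 and 10.95 TPM and 13.5, 14.2 and 14.2 TPM. It was higher in the daily mice of both tissues without overlap, by 0.49 in muscle, which passed (adjusted p = 0.0293), and by 0.25 in adipose tissue, which did not (adjusted p = 0.452). The difference of 0.24 ± 0.13 (adjusted p = 0.456) had an interval of -0.06 to 0.54.

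Metallothioneins bind zinc and are classical glucocorticoid-responsive genes. Mt2 was at 14.0, 18.6 and 12.4 TPM in vehicle muscle and 53.0, 24.4 and 36.4 TPM in daily muscle. In adipose tissue it was at 390, 525 and 462 TPM and 619, 834 and 589 TPM. Daily mice were higher in both tissues, by 1.24 in muscle (adjusted p = 0.0148) and 0.56 in adipose tissue (adjusted p = 0.333), with a difference of 0.68 ± 0.35 (adjusted p = 0.429). The difference for Mt1 was -0.15 ± 0.20 (adjusted p = 0.769).

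Other targets had intervals that bound the gap between tissues. For Tsc22d3, the anti-inflammatory protein GILZ, it was -0.14 to 0.32, for the clock gene Per1 -0.48 to 0.46, and for Zbtb16 -0.51 to 0.65. For Klf15, a regulator of amino acid breakdown, it was -0.13 to 0.70, and for Sesn1, an inhibitor of mTORC1, -0.42 to 0.12. Klf9 differed by -0.38 ± 0.11 (adjusted p = 0.209), with a change of -0.34 in muscle that passed (adjusted p = 0.0233) and of 0.04 in adipose tissue that did not (adjusted p = 0.948). Cebpb, a transcription factor of adipogenesis and inflammation, differed by -0.75 ± 0.17 (adjusted p = 0.159). It was at 54.2, 61.6 and 52.0 TPM in vehicle muscle and 33.3, 36.0 and 36.3 TPM in daily muscle.

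The receptor itself, Nr3c1, differed by -0.22 ± 0.11 (adjusted p = 0.426), and Hsd11b1, the enzyme that activates the steroid, by -0.09 ± 0.15 (adjusted p = 0.825). Atrophy genes had 0 of 25 tested members called, 20 of them negative, beside 68% of all genes (16 of 25 under TMM scaling, at a median of -0.01), and 7 fell in muscle, beside 11.6%. The ubiquitin ligase Fbxo32 (atrogin-1) differed by 0.07 ± 0.18 (adjusted p = 0.892), and Foxo1, its transcriptional activator, by -0.10 ± 0.13 (adjusted p = 0.776). Trim63 (MuRF1) was under 1 TPM in vehicle and daily adipose tissue and was not tested. It was at 133, 145 and 137 TPM in vehicle muscle and 204, 184 and 188 TPM in daily muscle. Ulk1, an autophagy kinase, differed by -0.50 ± 0.10 (adjusted p = 0.144).

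**Figure D4:**
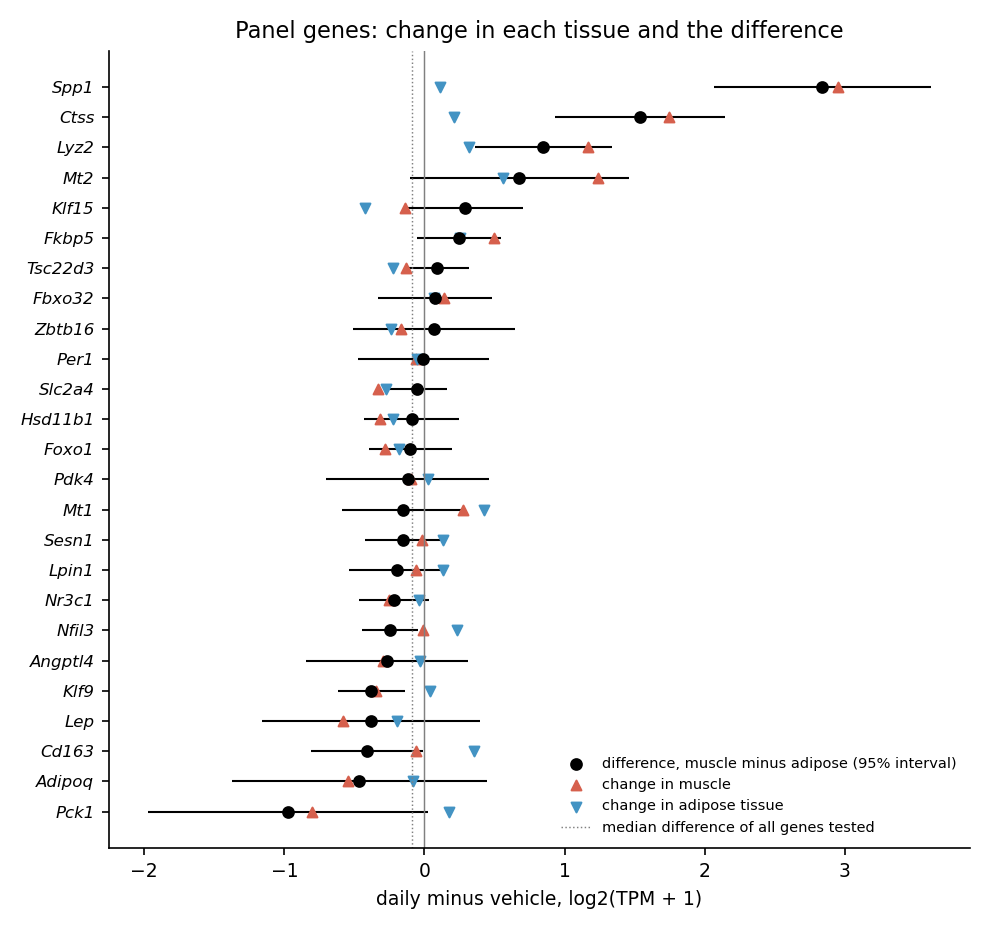
Panel genes that were tested (25 of 28): the difference between tissues with its 95% interval (black), the change in muscle (red) and the change in adipose tissue (blue), as daily minus vehicle on the log2(TPM + 1) scale. Spp1, Ctss and Lyz2 lie to the right with their change in muscle, and most target genes of the receptor have intervals across 0.

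Lipid storage genes had negative differences for the most part, with 0 called. All 25 members of triglyceride synthesis and lipolysis were negative, beside 68% of all genes, at a median of -0.27, and 5 fell in muscle, beside 11.6%. Gpam, the first enzyme of glycerolipid synthesis, was at 39.7, 45.1 and 40.9 TPM in vehicle muscle and 26.9, 27.9 and 25.1 TPM in daily muscle. In adipose tissue it was at 20.0, 29.2 and 25.4 TPM and 32.6, 22.7 and 31.0 TPM. Its difference was -0.83 ± 0.18 (adjusted p = 0.149). Slc27a1, a fatty acid transporter, differed by -0.75 ± 0.11 (adjusted p = 0.0829). Among 18 lipogenesis genes 16 were negative, and Acacb, the acetyl-CoA carboxylase at mitochondria, differed by -0.61 ± 0.14 (adjusted p = 0.16). Under TMM scaling 22 of 25 and 12 of 18 members of the 2 lists were negative.

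Oxidative genes fell in muscle without a called difference between tissues. In muscle 31 of 51 oxidative phosphorylation genes, 19 of 23 tricarboxylic acid cycle genes and 15 of 28 fatty acid oxidation genes fell, beside 11.6% of all genes. Over all genes the falls in muscle numbered 1358 here, 417 under TMM scaling and 2 without the third mice. Muscle falls within the 3 lists were not counted under those settings. No gene of the 3 lists was called for the difference. The median differences of the 3 lists were -0.06, -0.14 and -0.15, and under TMM scaling 0.05, -0.03 and -0.04, so the sign of the first depends on the scaling. Sdha, a subunit of succinate dehydrogenase, differed by -0.30 ± 0.09 (adjusted p = 0.21), Idh3b by -0.37 ± 0.10 (adjusted p = 0.207) and Acadm by -0.36 ± 0.09 (adjusted p = 0.178). The adipose medians of the 3 lists were -0.13, -0.10 and -0.05, below 0 as in muscle.

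Growth and matrix genes held some of the larger uncalled differences. Igf2, an embryonic growth factor, was at 9.92, 11.7 and 10.97 TPM in vehicle muscle and 39.97, 22.2 and 29.0 TPM in daily muscle. In adipose tissue it was at 6.83, 3.55 and 7.98 TPM and 4.58, 3.04 and 5.78 TPM. Its difference was 1.72 ± 0.32 (adjusted p = 0.123). Of 33 collagen and matrix genes 6 rose in muscle, beside 1.75% of all genes, 1 rose in adipose tissue (Thbs1), beside 0.00852%, and 0 were called for the difference. Tnc, tenascin C, differed by 0.94 ± 0.19 (adjusted p = 0.143), and Postn, periostin, by 1.57 ± 0.38 (adjusted p = 0.177) with positive changes of 2.20 in muscle and 0.63 in adipose tissue.

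The members with the smallest p in further lists are given as values, since none was called. The positive ones were Acta2 (smooth muscle actin) at 0.88 ± 0.17, Cxcl16 at 0.66 ± 0.20, Clu (clusterin) at 0.51 ± 0.17, Junb at 0.50 ± 0.11, Oasl2 at 0.49 ± 0.19, H2-DMb1 at 0.28 ± 0.22 and Hspa8 at 0.27 ± 0.09. The negative ones of the stromal, endothelial and cell cycle lists were Pi16 at -0.74 ± 0.21, Aurka at -0.60 ± 0.16 and Eng at -0.37 ± 0.11. Those of the metabolic and protein turnover lists were Rpl10a at -0.55 ± 0.16, Keap1 at -0.45 ± 0.10, Prkaa2 at -0.44 ± 0.14, Gys1 at -0.42 ± 0.10, Slc30a4 at -0.41 ± 0.10, Psme4 at -0.40 ± 0.11, Bckdk at -0.37 ± 0.11, Pmvk at -0.30 ± 0.12 and Sel1l at -0.24 ± 0.10. Their adjusted p ran from 0.123 to 0.589.

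A gap between groups was common without a call. In 2334 genes (19.9%) the 3 daily and 3 vehicle mice did not overlap in the muscle minus adipose value, and the 6 called genes were among them. Crygn and Slco1a6 were among the 40 genes with the smallest p in which the adipose change was the larger. Crygn was lower in daily adipose tissue by 1.58 on average but listed at 0 in both tissues of daily mouse 2. Slco1a6, an organic anion transporter, was at 1.86, 0.58 and 0.83 TPM in vehicle adipose tissue and 4.67, 2.42 and 3.20 TPM in daily adipose tissue (difference -1.26 ± 0.24, adjusted p = 0.123).

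**Figure D5:**
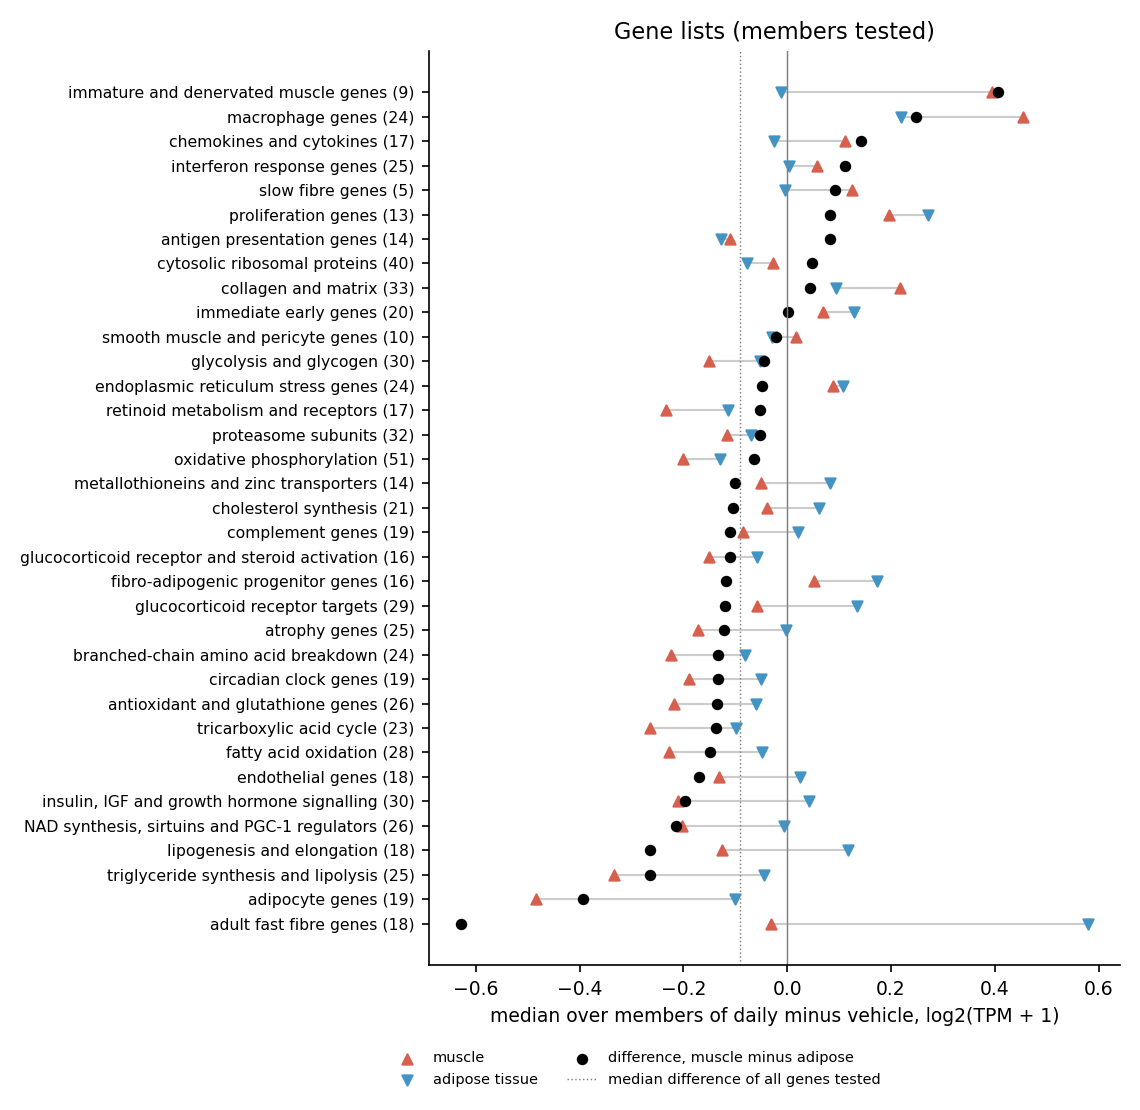
Median change of each gene list with 5 or more tested members in muscle (red) and adipose tissue (blue), and the median difference between tissues (black), as daily minus vehicle on the log2(TPM + 1) scale. Immature muscle and macrophage genes have the highest median differences, 0.41 and 0.25, and adipocyte and adult fast fibre genes the lowest, -0.39 and -0.63.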

How the data were processed

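Stranded mRNA libraries were made from Trizol and RNeasy purified RNA, per the labels' protocols. The deposited table holds TPM, which the authors computed for 105129 Ensembl transcripts; the submitters' processing notes name Trimmomatic, HISAT2, kallisto and mm10, without version or role. The annotation is not given in the sources used here, and 98.58% of transcript IDs match GENCODE M21, from which positions on GRCm38 were taken. Transcripts were summed to 33641 gene symbols. Genes with 1 TPM or more in 3 or more of the 9 libraries of each tissue were kept and log2(TPM + 1) was taken, which understates the change of low genes. Per the labels each mouse gave both tissues, which its code pairs. The muscle minus adipose value was fitted by regimen over all 9 mice (6 residual degrees of freedom) with limma 3.58.1 in R 4.3.3 (lmFit, eBayes with trend), two-sided, adjusted with Benjamini-Hochberg over the genes tested and called at 0.05. Each tissue was fitted likewise over the same genes.

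Residuals of a mouse's tissues correlated at a median of 0.046 over 9 mice (-0.10 to 0.148), so the pairing comes from the labels. Between tissues of different mice of a regimen the median was -0.021. That value is no separate control, since residuals were centred within each regimen, which ties it to the first. The members, 39 gene lists and a panel of 28 genes were chosen with earlier results of these data known. Genes named are called genes with non-overlapping mice and at least 5 TPM in a tissue, those called in both tissues, up to 3 called members or the member with the smallest p of each list with 5 or more tested, and the panel. Predicted genes, pseudogenes and mitochondrial genes are outside that rule. Some genes that the rule names are not reported here. Dclk1, mt-Atp6, Gm10925, Thbs1, Tubb6, Nes, Actc1, Hdac4, Mpeg1, Mrc1, C1qa, Tpsb2, Slc27a1, Postn, Crygn, Slco1a6, Rps12l1 and the immature muscle genes outside the panel that were not tested in both tissues meet no part of it and were named after their values were seen. Lists are described by counts and medians, with no test. The code was tested on simulated data, sequences were read from RefSeq promoter tables and GENCODE transcripts and aligned with Biopython 1.88, and figures were drawn with matplotlib 3.10.9.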

Additional observations from a re-analysis of the deposited data

Results flagged for a closer look

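For 6 genes the effect of daily prednisone differed between muscle and adipose tissue by the test of the difference itself (limma on the muscle minus adipose value of each mouse). In each of them the 3 daily and 3 vehicle mice did not overlap, as in 19.9% of all genes tested. That gap is no further support, since the same values gave the call. The differences on the log2 scale were 1.36 for Dclk1, 1.27 for Tubb2b, 2.84 for Spp1, 2.94 for Myl4, -1.07 for Adamtsl5 and -0.82 for mt-Atp6. Adjusted p ran from 0.00910 for Dclk1 to 0.0441 for the last 4. Over the alternatives run, Dclk1 was called in 17 of 23, Tubb2b in 15 of 24, Spp1 in 11, Myl4 in 10, Adamtsl5 in 9 and mt-Atp6 in 7. Dclk1 passed the filter through daily muscle alone, so its calls are no further support. The value for mt-Atp6 became -0.10 when its identical copy Gm10925 was added to it.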

How the results depend on the processing

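The number of genes called for the difference between tissues (6) ranged from 0 to 9 when 1 mouse was left out. It was 0 with a replicate block across regimens, whose numbers do not pair mice (same-numbered mice of different regimens had residuals correlated at -0.0007 in the median), and 73 with no replicate block for the mouse. It was 0 without the third mouse of every regimen, 675 with array weights, 2 without mitochondrial genes, 2 with a pseudocount of 0.1, 24 with a pseudocount of 5, 14 with no filter and 18 with a filter at 5 TPM. Of the alternatives involving fast fibre transcripts in adipose tissue, the covariate gave 1 and leaving out the 3 mice with most of them, added after seeing the data, gave 2; the filter in either tissue, also added, gave 15. Where limma called 0 genes, 663 (without the third mice) to 1465 (with the replicate block) had an unadjusted p under 0.05, and the smallest adjusted p was 0.061 to 0.115. TMM scaling, quantile normalization, only the 6 mice, a robust prior, a minimum difference and the summed mt-Atp6 gave 4 to 7. The genes behind these counts were not all the same. TMM scaling and quantile normalization each kept 4 of the 6 genes and called 0 lower. The fit on only the 6 mice kept 3, Spp1, Dclk1 and Tubb2b. The muscle count (1563) was 752 under TMM scaling, 3 without the third mice and 492 to 1589 with 1 mouse left out. The adipose count (1) was 4 with the replicate block, 0 without the third mice and 0 to 12 with 1 mouse left out.

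No called gene changed sign, which the fits that left out mice could not have shown for groups that did not overlap. Uncalled differences near 0 did. Under TMM scaling Hsd11b1 was 0.012, Per1 0.082 and Slc2a4 0.054, and under quantile normalization Per1 was 0.082 and Slc2a4 0.042. Zbtb16 was -0.011 without mitochondrial genes. With a pseudocount of 5 Foxo1 was 0.0069 and Per1 0.010, and with array weights Foxo1 was 0.024, Mt1 0.044 and Per1 0.078. Without the mice richest in fast fibre transcripts Hsd11b1 was 0.015, Mt1 0.074 and Zbtb16 -0.21. With 1 mouse left out Fbxo32 ranged from -0.082 to 0.21, Foxo1 from -0.18 to 0.043, Hsd11b1 from -0.23 to 0.015, Mt1 from -0.27 to 0.074, Pdk4 from -0.43 to 0.15, Per1 from -0.12 to 0.12 and Zbtb16 from -0.21 to 0.28. The cause of these changes was not tested. Labels do not give litters or cages, and 3 mice per group and an unknown depth limit the precision.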
